A study of Mus musculus with 6 samples.

Results

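Hypoxia response and glycolysis genes form a set of 36 genes, and 31 of them were measured in newborn eyeballs by a probe set that names the gene alone. The rule that lists them goes by function and uses no measured value, although the set was proposed with earlier results of these data known. Each gene was read from the brightest such probe set over all arrays. The measured members are 5 of 5 regulators of the hypoxia-inducible factor (HIF), 9 of 11 signaling, mitophagy and other HIF targets, 2 of 2 glucose transporters, 13 of 15 glycolytic enzymes and 2 of 3 kinases that set glycolytic or pyruvate flux. Bnip3l is covered only by 3 probe sets that name several genes, and Gpi1, Eno1, Ankrd37 and Pfkfb4 were not analysed here for want of such a probe set.

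RNA came from 3 Brg1 cKO and 3 wild-type eyeballs at postnatal day 1 (P1), all from a mixed background, and was hybridized to 1 Affymetrix array per eyeball. Brg1 cKO mice carry floxed Brg1 alleles on both chromosomes and a single copy of the Le-Cre transgene, which acts in the head surface ectoderm and its derivatives, among them lens and cornea. The wild-type eyeballs are called stage-matched littermates. The study states that it used floxed mice without Cre as controls, and the labels of these arrays do not say whether they carried floxed alleles. No group carried Le-Cre without the floxed alleles. As a model the cKO eyeball is limited by incomplete deletion in many embryos and by a malformation that varied between animals, both described by the study. Whole eyeballs were taken in place of lenses, and nothing says whether any came from the same pup, so the p-values measure the spread between these eyeballs. The question here is how the oxygen and glucose programme of the newborn eye differed when Brg1, an ATPase subunit of SWI/SNF chromatin remodeling complexes, was deleted in the lens lineage.

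When oxygen is sufficient, the prolyl hydroxylases Egln1 and Egln3 mark HIF alpha subunits for destruction by the von Hippel-Lindau protein. When oxygen is low, Hif1a or Epas1 pairs with Arnt and binds hypoxia response elements, which raises transcription of glucose transporters, glycolytic enzymes and signals such as Vegfa. HIF activity is thus set mainly at the protein, which an RNA array does not measure. The mature lens has no blood vessels and depends largely on glycolysis. In the newborn mouse the hyaloid vessels are still present and the retina is only beginning to be vascularized.

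The HIF core motif is ACGTG or GCGTG, and upstream stretches of 150 bases are shown for the kinase with the highest difference (Pfkfb3, at its start site farther upstream), the enzyme with the lowest (Aldoc), a secreted target (Adm), a mitophagy receptor (Bnip3) and the terminal enzyme (Ldha), so that the motifs can be set beside their values. They end at the base before the RefSeq start site, run 5′ to 3′ along the gene, and carry each motif on either strand in capitals, so that CACGT is ACGTG and CACGC is GCGTG read on the other strand. The coordinates are GRCm38.p6: chr2:11553930-11554079 (minus strand) for Pfkfb3, chr11:78322923-78323072 (plus) for Aldoc, chr7:110627507-110627656 (plus) for Adm, chr7:138909507-138909656 (minus) for Bnip3 and chr7:46845654-46845803 (plus) for Ldha.
Pfkfb3: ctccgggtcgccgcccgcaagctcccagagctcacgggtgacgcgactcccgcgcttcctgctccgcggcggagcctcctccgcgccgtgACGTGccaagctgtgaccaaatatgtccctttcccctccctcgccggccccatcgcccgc
Aldoc: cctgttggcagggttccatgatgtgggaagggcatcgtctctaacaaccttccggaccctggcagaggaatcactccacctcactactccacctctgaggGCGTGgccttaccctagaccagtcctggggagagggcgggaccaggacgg
Adm: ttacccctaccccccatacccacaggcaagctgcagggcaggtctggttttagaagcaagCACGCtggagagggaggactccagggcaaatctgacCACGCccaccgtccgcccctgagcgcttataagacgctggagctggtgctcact
Bnip3: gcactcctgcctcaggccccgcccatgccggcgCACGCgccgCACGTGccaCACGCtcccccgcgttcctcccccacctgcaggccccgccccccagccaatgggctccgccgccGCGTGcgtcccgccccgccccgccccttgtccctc
Ldha: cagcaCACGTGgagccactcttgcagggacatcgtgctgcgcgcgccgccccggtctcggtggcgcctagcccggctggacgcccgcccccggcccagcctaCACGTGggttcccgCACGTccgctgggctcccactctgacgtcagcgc
The Ldha stretch held ACGTG at 3 places, counting the palindrome CACGTG once, and no GCGTG. Bnip3 held ACGTG at 1 place and GCGTG at 3. Pfkfb3 held 1 ACGTG, Adm 2 GCGTG and Aldoc 1 GCGTG. Over windows that run 250 bases before to 50 after the start site, ACGTG was found for 21 of the 32 members with an entry (65.6%), against 21.8% of 27025 genes. GCGTG was found for 22 of 32 (68.8%), against 35.2% of genes. Members have more start sites per gene, and counted per window the shares were 53.2% of 47 member windows, against 19.6% of 32851, for ACGTG and 57.4%, against 32.4%, for GCGTG. Ndrg1, Bnip3l, Slc2a3 and Epas1 had no entry. Measured members with and without ACGTG had much the same median log2 difference between genotypes, 0.30 and 0.28. With and without GCGTG it was 0.34 and 0.22. A motif match is a description of the letters and shows no binding.

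Array quality was similar between the groups. Median intensity was 180.0 to 185.5 in Brg1 cKO and 169.1 to 184.6 in wild type, and the 3′ minus 5′ signal of the actin controls was 0.98 to 1.34 in Brg1 cKO and 0.93 to 1.12 in wild type in log2. The deleted gene Smarca4, which encodes Brg1, did not separate the groups: the brighter probe set read 10.35, 9.93 and 9.98 in Brg1 cKO eyeballs, against 10.11, 9.82 and 9.81 in wild type, and the second read 7.82, 7.79 and 8.55, against 9.21, 8.37 and 8.67. Their exact two-sided permutation p was 0.5 and 0.2, where 0.1 is the smallest that 3 against 3 arrays can give. Whether either probe set lies in the deleted part was not known, and most cells of the eyeball lie outside the Le-Cre lineage. All 11 measured lens markers and all 11 retina and neuron markers had mean levels over the 6 arrays above log2 4.84, the 25th percentile of all values, although the lens markers Gja3 and Dnase2b were below it in Brg1 cKO (4.68 and 3.87). The first Brg1 cKO eyeball was the only one with low Xist (4.88, against 12.30 to 12.92 in the other 5) and high Eif2s3y (11.25, against 2.10 to 2.62), and so differed in sex markers from the rest.

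No member passed the threshold of an adjusted p under 0.05 (limma, Benjamini-Hochberg over 22626 probe sets), where 0.694% of 12393 genes did (86 genes). At an unadjusted p under 0.05 there were 6 of 31 members (19.4%), against 9.30% of genes. Higher in Brg1 cKO were 5 of them, Pfkfb3, Slc2a3, Adm, Ddit4 and Eno2 (5.56% of all genes), and lower was 1, Aldoc (3.74% of all genes). With a fold over 1.5 added, Pfkfb3, Slc2a3, Adm and Aldoc stayed (12.9% of members, against 7.30% of genes). The template matching that the study states for these arrays (an unadjusted p under 0.05 for the correlation with genotype, and a fold over 1.5) took 3 members, Pfkfb3, Slc2a3 and Aldoc, which is 9.68%, against 4.37% of genes. Because these are whole eyeballs, a lower signal can come from fewer cells of a type or from less RNA per cell, and the arrays cannot tell these apart.

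The members leaned to higher values in Brg1 cKO eyeballs. A positive difference was found for 27 of 31 (87.1%), against 52.9% of all genes, and the median log2 difference was 0.28, against 0.02. In 7 members all 3 Brg1 cKO arrays lay above all 3 wild-type arrays (Pfkfb3, Slc2a3, Adm, Ddit4, Eno2, Ldha and Vegfa), which is 22.6%, against 8.46% of genes, and in 1 (Aldoc) all lay below, 3.23%, against 6.38%. The 31 values come from the same 6 eyeballs and are not independent, so these counts are a description and were given no test. The third wild-type eyeball was the highest of its group in 24 of 31 members and the first was the lowest in 16. Without the first wild-type array 24 members had a positive difference, and without any other array 25 to 28 did.

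**Figure D1:**
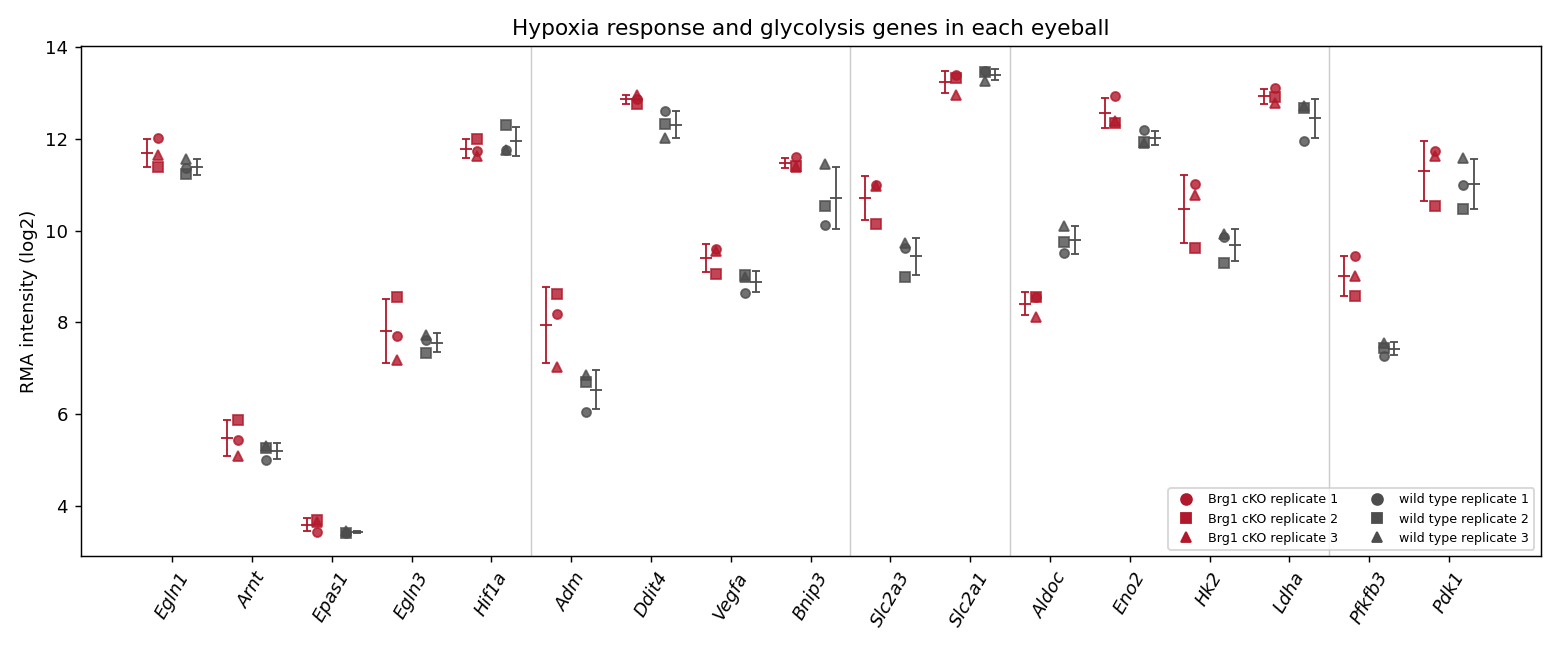
RMA intensity (log2) of the members named with values in every array, in Brg1 cKO (red) and wild-type eyeballs (grey), a symbol for each replicate, with the group mean and SD beside the points. Grey lines part the role groups. Pfkfb3, Slc2a3 and Aldoc stand well apart between the groups, while Hif1a, Slc2a1 and Pdk1 overlap.

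For all 5 regulators of the pathway the genotypes overlapped. Their median difference of 0.26 was near the 0.28 of all members. The 95% intervals reached up to 1.07 for Egln3 and 0.83 for Arnt, so the overlap does not show equal levels. Hif1a, the oxygen-regulated alpha subunit, was bright in every eyeball, at 11.72, 12.00 and 11.62 in Brg1 cKO and 11.75, 12.30 and 11.76 in wild type. The groups overlapped and the second eyeball was the highest in both. The difference was -0.16 with an SE of 0.22 (95% interval -0.67 to 0.36, adjusted p = 0.898 in limma, exact permutation p = 0.5), which leaves room for a difference of either sign. Its 3 other probe sets read differences of -0.06, -0.73 and 0.07, the widest of them with an SE of 0.52.

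Egln1, the main oxygen sensor among the prolyl hydroxylases, read 12.01, 11.39 and 11.65 in Brg1 cKO and 11.37, 11.22 and 11.56 in wild type. Only the first Brg1 cKO eyeball stood clear of the wild-type range by a wide margin, and the difference was 0.30 with an SE of 0.21. Egln3, a hydroxylase that is itself a HIF target, read 7.70, 8.56 and 7.19 in Brg1 cKO and 7.62, 7.33 and 7.73 in wild type. Its difference of 0.26 (SE 0.35) rested on the second Brg1 cKO eyeball, and the second probe set read -0.11. Arnt, the constitutive partner, was dim at 5.45, 5.88 and 5.09 in Brg1 cKO and 5.01, 5.28 and 5.31 in wild type (difference 0.28, SE 0.24), and its dimmer probe set read -0.27. Epas1, the alpha subunit best known from endothelium, lay at the low end of the arrays, at 3.44, 3.71 and 3.65 in Brg1 cKO and 3.43, 3.43 and 3.46 in wild type. A probe set that low carries little information on a difference. Adjusted p was between 0.786 and 0.898 for the 5 regulators in limma.

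Among the signaling targets, Adm, the vasodilator peptide adrenomedullin, had the widest difference. It read 8.18, 8.63 and 7.03 in Brg1 cKO eyeballs, against 6.05, 6.71 and 6.86 in wild type. All 3 Brg1 cKO arrays were higher, but the third by only a little over the highest wild-type array. The difference was 1.41 with an SE of 0.43, or 2.65-fold, with an interval from 0.40 to 2.41 and an adjusted p of 0.382 in limma. Vegfa, the vascular growth factor, read 9.59, 9.06 and 9.56 in Brg1 cKO and 8.65, 9.04 and 9.0 in wild type. The groups did not overlap, yet the second Brg1 cKO eyeball lay next to the wild-type values, and the difference was 0.51 (SE 0.22, adjusted p = 0.594 in limma). A dimmer Vegfa probe set read 0.17 with overlapping groups.

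Ddit4 (Redd1), a stress-induced inhibitor of mTORC1 signaling, was tight in the Brg1 cKO group at 12.85, 12.75 and 12.95, against 12.59, 12.32 and 12.01 in wild type. The groups did not overlap, with a difference of 0.55 (SE 0.20, 1.46-fold, adjusted p = 0.514 in limma). Bnip3, a mitochondrial outer membrane protein that serves as a mitophagy receptor, was likewise tight in Brg1 cKO at 11.59, 11.41 and 11.39, while the wild-type eyeballs spread over 10.13, 10.54 and 11.45. The third wild-type eyeball fell inside the Brg1 cKO range. Its difference of 0.76 (SE 0.33, 1.69-fold, adjusted p = 0.599 in limma) was 0.47 to 1.13 when 1 array at a time was left out.

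The other targets differed less. P4ha2, which hydroxylates proline in collagen, was higher by 0.34, Mxi1, an antagonist of Myc, by 0.22, and the carbonic anhydrase Car9 by 0.19, all with overlapping groups. P4ha1, an isoform of the same enzyme, gave 2 answers. Its bright probe set read a difference of 0.04, while the dimmer one read 5.78, 5.25 and 6.51 in Brg1 cKO and 6.73, 6.59 and 7.43 in wild type, a difference of -1.07 (SE 0.36, adjusted p = 0.464 in limma). Ndrg1, a widely used hypoxia marker, had a difference of -0.07, and its 4 other probe sets lay between -0.09 and 0. For the 9 measured targets, 8 differences were positive with a median of 0.34.

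The 2 glucose transporters parted. Slc2a3 (Glut3), the high-affinity transporter of neurons that leukocytes also carry, read 10.99, 10.14 and 10.96 in Brg1 cKO eyeballs, against 9.62, 8.99 and 9.73 in wild type. Every Brg1 cKO array was higher than every wild-type array, and the second was the lowest of its group in both genotypes. The difference was 1.25 with an SE of 0.31, or 2.38-fold (interval 0.53 to 1.97, adjusted p = 0.230 in limma), and the other bright probe set of the gene read 1.26 (SE 0.29). The suffixes of both bright names mark probes that may match other sequences. A pair of dim Slc2a3 probe sets, with means below log2 4.84, read 0.22 and 0.13. Slc2a1 (Glut1), the transporter of blood-tissue barriers, was near the top of the range at 13.38, 13.32 and 12.94 in Brg1 cKO and 13.46, 13.45 and 13.26 in wild type. Its groups overlapped, with a difference of -0.17 (SE 0.19, interval -0.62 to 0.27), and its other probe sets read 0.07 and -0.07. Within each array the log2 value of Slc2a3 minus that of Slc2a1 was -2.40, -3.18 and -1.98 in Brg1 cKO and -3.84, -4.47 and -3.53 in wild type, a change of 1.43 with no overlap. Such a ratio between probe sets compares arrays and not the levels of the 2 genes, and the gene pairs were chosen after their values were seen.

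**Figure D2:**
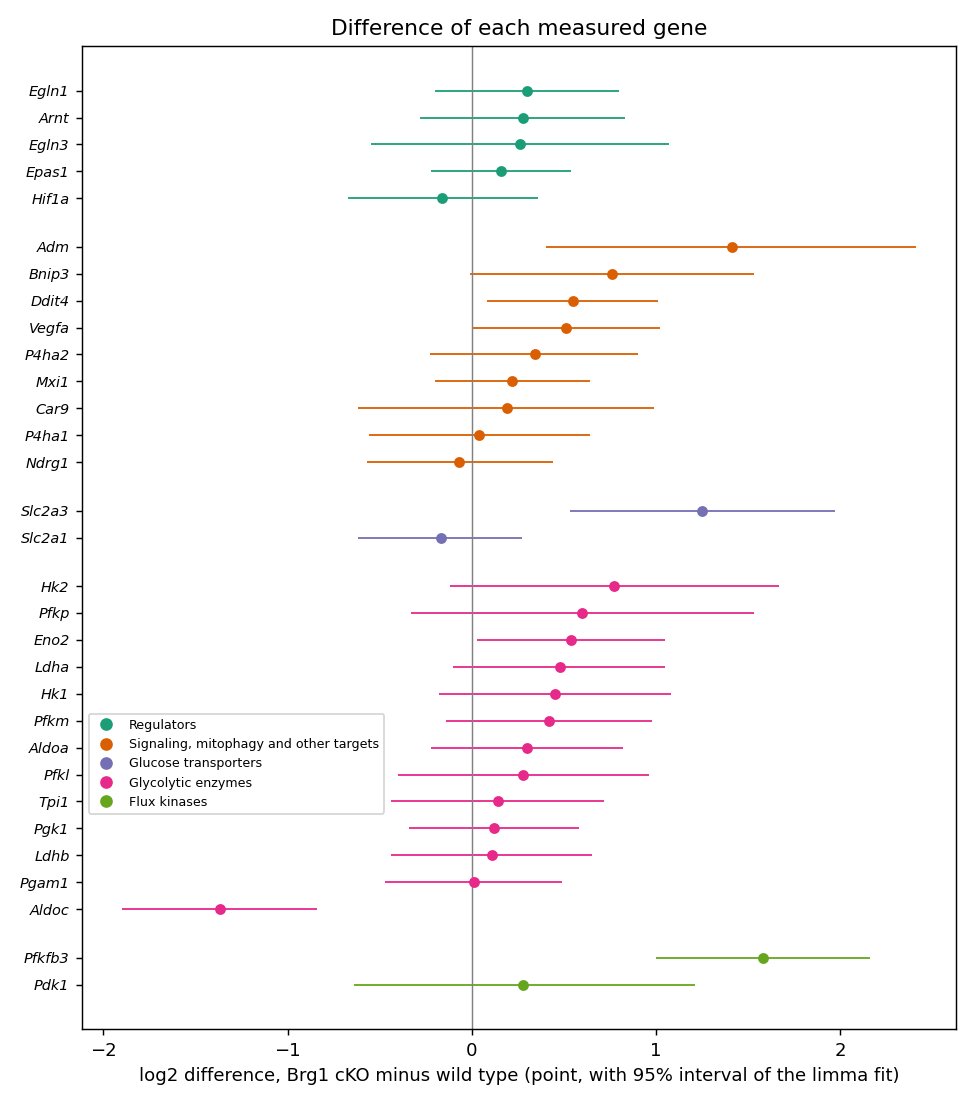
The log2 difference (Brg1 cKO minus wild type, horizontal axis) of each of the 31 measured members, with the 95% interval of the limma fit, coloured and grouped by role. Most points lie to the right of 0 with intervals that cross it, Pfkfb3, Adm and Slc2a3 lie farthest right, and Aldoc alone lies far to the left.

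Aldoc, the brain-type aldolase C that cleaves fructose bisphosphate, was the exception among the enzymes. It read 8.56, 8.56 and 8.12 in Brg1 cKO eyeballs, against 9.51, 9.75 and 10.10 in wild type. All Brg1 cKO arrays lay below all wild-type arrays by a margin wider than the range of either group. The difference was -1.37 with an SE of 0.23, a signal 2.59-fold lower (interval -1.90 to -0.84), and the adjusted p was 0.0643 in limma. The exact permutation p was 0.1, the smallest possible. A second Aldoc probe set near the bottom of the range read -0.45 (SE 0.31). Aldoa, the ubiquitous aldolase that does the same reaction, differed by 0.30 (SE 0.22), and its 4 probe sets agree within 0.25 to 0.30, although the suffix of all 4 names marks probes that may match other sequences. Within an array, Aldoc minus Aldoa was -4.54, -4.70 and -4.94 in Brg1 cKO and -2.98, -3.08 and -3.10 in wild type, a change of -1.67.

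The other 12 measured enzymes had positive differences from 0.01 to 0.77. At the entry of the pathway, Hk2, the inducible hexokinase, read 11.01, 9.61 and 10.77 in Brg1 cKO and 9.85, 9.29 and 9.93 in wild type. The first and the third Brg1 cKO eyeballs were above all wild-type eyeballs and the second lay among them, so that the difference of 0.77 had an SE of 0.38 (adjusted p = 0.670 in limma). Hk1, the housekeeping hexokinase, was higher by 0.45 (SE 0.27) on its brighter probe set. On its dimmer one it read 6.51, 6.27 and 5.93 in Brg1 cKO and 5.63, 5.45 and 5.57 in wild type, with no overlap (difference 0.69, SE 0.20, adjusted p = 0.344 in limma). The phosphofructokinases, which commit sugar to glycolysis, were higher by 0.60 for the platelet form Pfkp, 0.42 for the muscle form Pfkm and 0.28 for the liver form Pfkl, all with overlapping groups. With 1 array left out Pfkp ran from 0.19 (without the first Brg1 cKO eyeball) to 0.94 (without the second), and Pfkl from 0.03 (without the first wild-type eyeball) to 0.53 (without the third).

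Farther down the pathway the differences were mixed. Tpi1, which interconverts the triose phosphates, differed by 0.14, the kinase Pgk1 by 0.12 and the mutase Pgam1 by 0.01. Each of the 3 had its lowest value of all 6 arrays in the first wild-type eyeball. For Pgam1 the interval was -0.47 to 0.49. Eno2, the neuronal enolase, read 12.92, 12.34 and 12.38 in Brg1 cKO, against 12.19, 11.93 and 11.91 in wild type. The groups did not overlap, and the difference was 0.54 (SE 0.22, 1.45-fold, adjusted p = 0.563 in limma).

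Ldha, which turns pyruvate into lactate, read 13.09, 12.91 and 12.77 in Brg1 cKO and 11.95, 12.67 and 12.71 in wild type. The groups did not overlap, but only the first wild-type eyeball was far below the rest. The difference of 0.48 (SE 0.25, adjusted p = 0.689 in limma) was 0.23 without that eyeball. Ldhb, the heart-type subunit that favours the reverse reaction, differed by 0.11. Ldha minus Ldhb within an array was 1.46, 1.58 and 1.58 in Brg1 cKO and 1.08, 1.16 and 1.26 in wild type, a change of 0.37 with no overlap and with less spread than either gene alone. The other pairs compared in this way overlapped, Hk2 minus Hk1 and Pfkp minus Pfkl, each with a change of 0.32.

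The widest difference of the set belonged to Pfkfb3, the bifunctional enzyme that makes fructose 2,6-bisphosphate, a strong activator of phosphofructokinase. It read 9.44, 8.57 and 9.02 in Brg1 cKO eyeballs, against 7.28, 7.45 and 7.56 in wild type. All Brg1 cKO arrays lay at least 1 log2 unit above the highest wild-type array. The difference was 1.58 with an SE of 0.25, or 3.0-fold (interval 1.0 to 2.16), and its adjusted p of 0.0533 in limma was just short of the threshold. The exact permutation p was 0.1, again the smallest possible. The only other Pfkfb3 probe set was near the bottom of the range, with means of 4.33 in Brg1 cKO and 4.22 in wild type, and read 0.11. Pdk1, which shuts pyruvate out of the mitochondrion by inhibiting pyruvate dehydrogenase, read 11.72, 10.54 and 11.62 in Brg1 cKO and 10.99, 10.47 and 11.57 in wild type. Its groups overlapped almost wholly, with a difference of 0.28 (SE 0.40), and the dimmer probe set read 0.24.

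Both Pfkfb3 and Aldoc stood at the edge of the threshold, and small changes of the method decided the call. With an intensity trend and robust variance the adjusted p was 0.0449 for Pfkfb3 and 0.0484 for Aldoc, and with array weights 0.0205 and 0.0460. With each array centred on its median Pfkfb3 had 0.0492, and without the second Brg1 cKO eyeball 0.0175. Under all 13 alternative fits the adjusted p ran from 0.0175 to 0.274 for Pfkfb3 and from 0.0460 to 0.266 for Aldoc. With 1 array left out at a time the difference was 1.37 to 1.80 for Pfkfb3 and -1.51 to -1.21 for Aldoc.

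**Figure D3:**
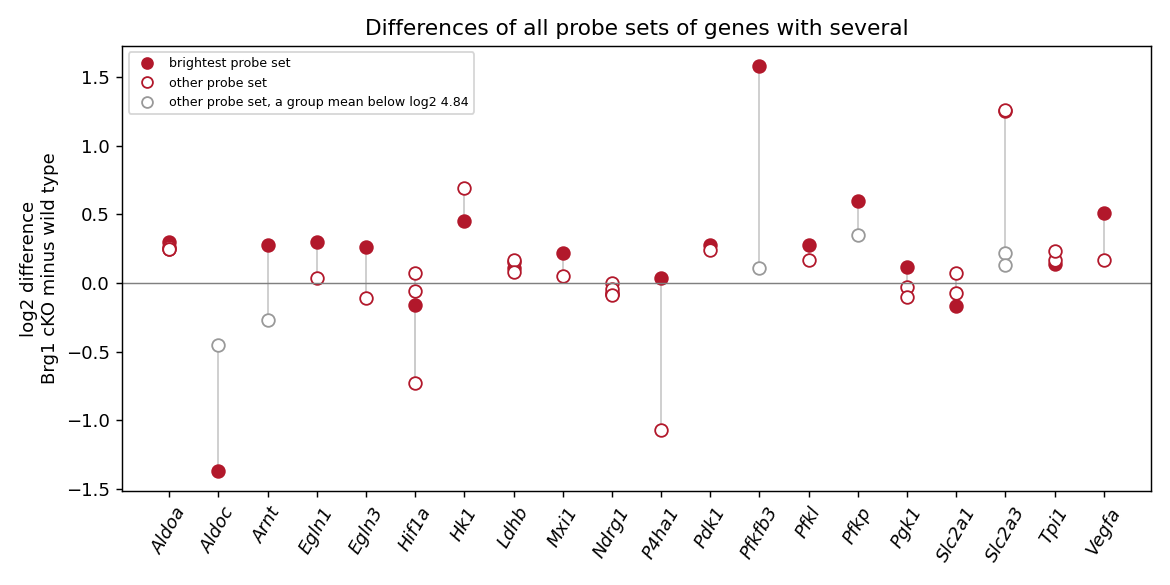
The log2 difference (Brg1 cKO minus wild type, vertical axis) read by every probe set of the 20 members with several, filled for the brightest and open for the others, grey where a group mean is below log2 4.84. Slc2a3 repeats on a second bright probe set, although both may match other sequences. Pfkfb3 and Aldoc rest on 1 bright probe set each, and P4ha1 reads -1.07 on its second.

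The enzymes and the signaling, mitophagy and other targets were then set side by side in each eyeball, as the median shift from the wild-type mean. The 9 targets include Car9, Mxi1, P4ha1 and P4ha2, with differences of 0.19, 0.22, 0.04 and 0.34. They stand beside Vegfa, Adm, Bnip3, Ddit4 and Ndrg1, with 0.51, 1.41, 0.76, 0.55 and -0.07. For a wild-type eyeball the shift was taken from the average of the remaining pair of its group. The 13 enzymes shifted by 0.35, 0.31 and 0.20 in Brg1 cKO and by -0.53, -0.02 and 0.40 in wild type. The 9 targets shifted by 0.55, 0.21 and 0.21 in Brg1 cKO and by -0.13, -0.13 and 0.33 in wild type. In both groups of genes the third wild-type eyeball shifted upward, as all Brg1 cKO eyeballs did, so the direction of the shift did not separate the genotypes. Enzymes minus all 9 targets was -0.20, 0.10 and -0.01 in Brg1 cKO and -0.40, 0.11 and 0.07 in wild type. Both signs occurred in each genotype. The signaling and mitophagy genes were not set against the enzymes without the other targets, and the signs may differ there. The shifts of enzymes and targets had the same sign in all 6 eyeballs. All 31 members together shifted by 0.40, 0.27 and 0.21 in Brg1 cKO and -0.22, -0.02 and 0.36 in wild type, while all 12393 genes shifted by no more than 0.07.

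**Figure D4:**
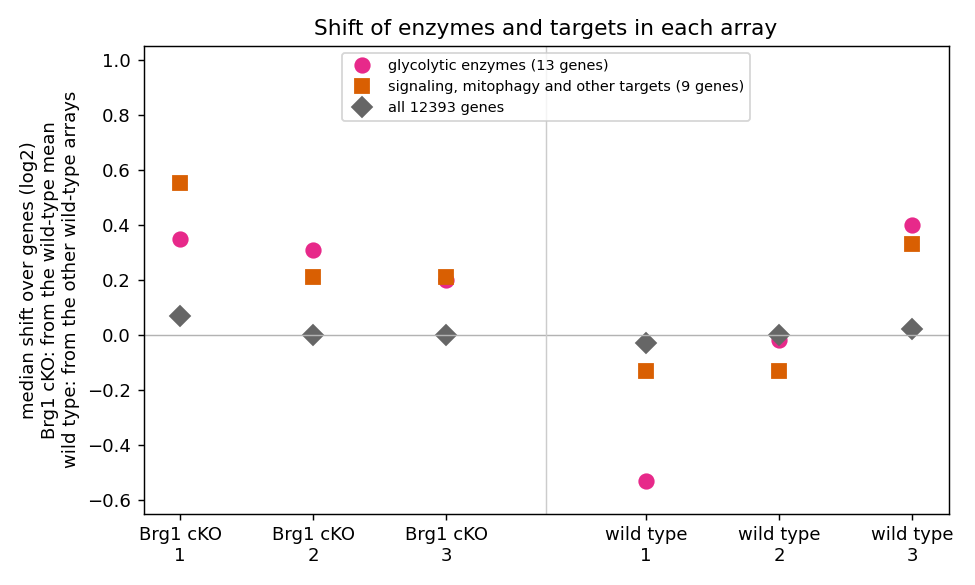
Median shift (log2, vertical axis) of the 13 glycolytic enzymes, the 9 targets and all genes in each of the 6 eyeballs, Brg1 cKO at left and wild type at right. Among the wild-type eyeballs, eyeball 1 is lowest for the enzymes at -0.53 and eyeball 3 highest at 0.40. Each wild-type shift leaves its own eyeball out of the wild-type mean, which enlarges it, while Brg1 cKO shifts use the full mean. The heights of the points therefore cannot be ranked between the genotypes.

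The members can also be read by eyeball. Of the 13 enzymes, 9 were highest in the first Brg1 cKO eyeball among its group, and 11 were highest in the third wild-type eyeball among its group. Within Brg1 cKO, 14 of the 31 members were lowest in the second eyeball, among them Pfkfb3, Slc2a3, Hk2, Pdk1, Egln1, Vegfa and Eno2, 13 in the third and 4 in the first. Hif1a, Arnt, Egln3, Adm, Car9 and Aldoa were highest in the second and lowest in the third. The spread over arrays was much the same in both genotypes, with a median SD over members of 0.29 in Brg1 cKO and 0.31 in wild type.

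Markers of cell types differed between the same eyeballs. The 11 measured lens markers shifted by -3.18, -1.17 and -3.43 in Brg1 cKO and by -0.15, 0.06 and -0.01 in wild type, all 11 were lower, 1 passed adjusted p under 0.05 in limma, and their mean level was log2 8.45 to 10.95 in Brg1 cKO and 12.27 to 12.40 in wild type. The 12 myeloid markers shifted by 1.0, 2.19 and 1.19 in Brg1 cKO and by -0.11, -0.24 and 0.50 in wild type. All 12 had a positive difference and 3 passed, but Cx3cr1 and Itgam differed by only 0.07 and 0.11 with overlapping groups. The mean level of the 12 was 8.38 to 9.50 in Brg1 cKO and 6.48 to 7.03 in wild type. Itgam was below log2 4.84 in both groups, and Ptprc and Cd14 were below it in wild type (means 4.65 and 4.41). The second Brg1 cKO eyeball had the most lens signal and the most myeloid signal of its group. Within Brg1 cKO, 14 of the 31 members were lowest in that eyeball, among them Pfkfb3, Slc2a3 and Hk2. Another 10 were highest in it, among them Adm. Slc16a3 and Angptl4, HIF pathway genes outside the set that are described below, were also highest of their group there.

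The 11 retina and neuron markers shifted by 0.55, -0.25 and 0.22 in Brg1 cKO and by -0.03, 0.13 and -0.12 in wild type (1 higher passed, mean level 10.10 to 10.92 in Brg1 cKO and 10.23 to 10.39 in wild type). Their order within Brg1 cKO was the order of Slc2a3, Hk2 and Pdk1. Within wild type it was the reverse. There the markers were highest in the second eyeball and lowest in the third, while Slc2a3, Hk2 and Pdk1 were lowest in the second and highest in the third. The 14 skeletal muscle markers, none of which passed in limma (1 before adjustment), shifted by -0.54, 0.88 and 0.40 in Brg1 cKO and -0.33, -0.49 and 0.84 in wild type, so that muscle signal was highest of its group in the third wild-type eyeball, where most enzymes were highest too. In Brg1 cKO this was not so, as 9 of 13 enzymes were highest in the first eyeball, which had the lowest muscle shift. The 9 endothelial markers had the same order, at -0.08, 0.88 and 0.35 in Brg1 cKO and -0.21, -0.36 and 0.67 in wild type, with none past the threshold in limma before or after adjustment. The 9 epidermal markers shifted by 0.66, 1.44 and 1.17 in Brg1 cKO and -0.03, 0.27 and -0.20 in wild type. Of these, 6 had a positive difference and 3 passed the threshold, all higher (Krt16, Krt6b and Sprr1b). Krt1, Krt10 and Krt5 differed by -0.60, -0.37 and -0.02 with overlapping groups. Sprr1b and Lor were below log2 4.84 in wild type (means 2.85 and 4.53). That list holds keratins and cornified envelope genes of surface epithelium. None of the 6 erythroid or 6 melanocyte and pigment epithelium markers passed in limma, before or after adjustment, with shifts of -0.32 to 0.31 in Brg1 cKO and -0.17 to 0.24 in wild type for the erythroid list and of -0.10 to 0.21 in Brg1 cKO and -0.36 to 0.25 in wild type for the pigment list. With Epb42, Hba-a1, Klf1 and Rhag below log2 4.84, 4 of the 6 erythroid markers were too dim to tell of a shift, as was Rpe65 of the pigment list. The part of lens, myeloid, neural, muscle or epidermal RNA in the members' differences was not tested.

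**Figure D5:**
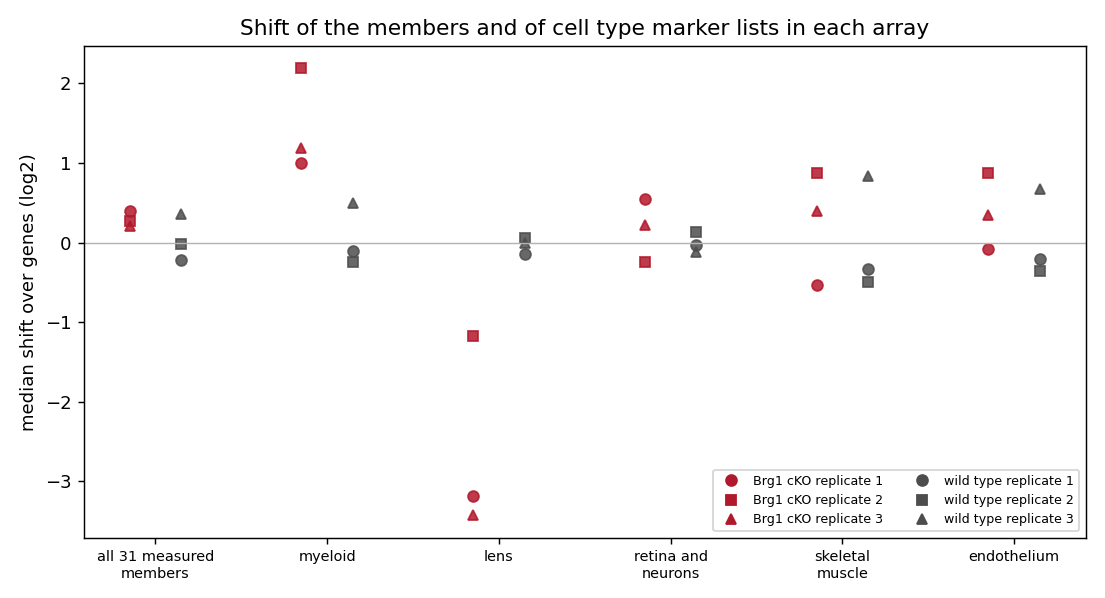
Median shift (log2, vertical axis) of the 31 measured members and of 5 marker lists in each eyeball, Brg1 cKO (red) left of wild type (grey), a symbol for each replicate. The lens list lies far below 0 in Brg1 cKO and the myeloid list above it, with wider gaps between genotypes than the members show.

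Beyond the set, 32 of 35 other genes of the HIF pathway were measured. At an unadjusted p under 0.05 in limma 6 were higher and 1 was lower. The lower one was Car12, with a difference of -0.65 (SE 0.20, adjusted p = 0.411 in limma) and no overlap. A positive difference was found for 22, with a median of 0.23, and 1 passed the threshold. This was Slc16a3 (Mct4), the transporter that exports lactate from glycolytic cells, at 10.30, 10.59 and 9.98 in Brg1 cKO eyeballs and 8.41, 8.72 and 9.02 in wild type. The groups were far apart, with a difference of 1.57, an SE of 0.24 and a 2.97-fold higher signal, but the adjusted p of 0.0498 in limma lay just under the threshold. It was 0.0723 to 0.231 without any 1 array, 0.105 with an offset of 16 and 0.0536 after quantile normalization.

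Next in the same list came Angptl4, a secreted inhibitor of lipoprotein lipase, at 9.56, 10.71 and 9.82 in Brg1 cKO and 8.28, 8.15 and 6.98 in wild type. No arrays overlapped, and the difference of 2.23 (SE 0.43, 4.68-fold, adjusted p = 0.112 in limma) was larger than that of any member of the set. Stc2, a secreted glycoprotein, was higher by 0.78 (SE 0.23, adjusted p = 0.375 in limma) on its brightest probe set, and a dimmer one read 1.69 with an adjusted p of 0.0364. Nos2, the inducible nitric oxide synthase, was higher by 0.61 but had means below log2 4.84. The related monocarboxylate transporter Slc16a1, which was counted with the other glycolysis genes, differed by 0.02 (SE 0.16).

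None of the 14 measured genes among 20 others of glycolysis and glycogen passed in either direction at adjusted p under 0.05 in limma, and 1 was under 0.05 before adjustment. Of these 14, 12 had a positive difference, with a median of 0.17. The 4 with the smallest p were Pgm2, higher by 0.43, and Eno3, Gbe1 and Pygm, higher by 0.57, 0.23 and 0.43 with overlapping groups. Eno3 and Pygm are the muscle forms of enolase and glycogen phosphorylase, and both were highest in the second Brg1 cKO eyeball, as the muscle markers were. Gapdh was present only as array control probe sets, outside the test, at 13.79, 13.70 and 13.66 in Brg1 cKO and 13.42, 13.67 and 13.66 in wild type for its 3′ set. Of 24 genes of pyruvate oxidation and the citric acid cycle 22 were measured, 16 of them with a positive difference and a median of 0.08, and none passed in either direction in limma, before or after adjustment. Pdk4, a starvation-induced relative of Pdk1, was higher by 0.63 (adjusted p = 0.632 in limma). Its groups only just missed overlapping, at 10.87 in the lowest Brg1 cKO array and 10.86 in the highest wild-type array. The succinate dehydrogenase subunits Sdhb and Sdha differed by -0.27 and 0.25, the ligase subunit Sucla2 by 0.24.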

How the data were processed

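The authors deposited RMA-summarised intensity values on a linear scale for 1 Affymetrix mouse expression array per eyeball (50 ng of RNA, amplified before labeling). Neither labels nor methods name the RMA software's version. The values were taken to log2, 64 array controls of 22690 rows were left out, and 22626 probe sets were tested with limma 3.58.1 in R 4.3.3 (genotype only, two-sided, Benjamini-Hochberg over all of them). RMA draws in differences of dim probe sets, so folds are likely understated there. The platform annotation gave 20380 probe sets exactly 1 gene, 12393 genes in all. Values in every array are given for Hif1a, Smarca4 and up to 4 members per role with the smallest unadjusted p. The members, gene lists and marker lists were chosen with earlier results of these data known. Other variance models, weights, filters, scalings, probe sets and left-out arrays were run as alternatives. The test was checked on simulated data. Promoter sequences are RefSeq's. With 3 arrays per group the members' 95% intervals had a median half-width of 0.56 in log2.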

Additional observations from a re-analysis of the deposited data

How the results depend on the processing

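The direction of the members' differences was kept in most alternative fits: of 436 values under another fit or probe set, 20 changed sign, 6 newly passed the threshold and 410 did neither. Against 0 members in the main test, 2 passed with an intensity trend and robust variance or with array weights (in each case 1 higher and 1 lower), 1 (higher) with arrays centred on the median, 3 by template matching (2 higher, 1 lower), 4 by an unadjusted limma p with a fold over 1.5 (3 higher, 1 lower), and 0 to 1 with 1 array left out (0 to 1 higher), the exception being the set without the second Brg1 cKO array. Over all probe sets 115 passed (69 higher, 46 lower), against 190 (88 lower) with array weights, 32 (18 higher, 14 lower) with an offset of 16 and 24 to 216 (15 to 114 higher, 8 to 113 lower) with 1 array left out.

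With the replicate number as a block no member passed, 45 probe sets did (34 higher, 11 lower), and the adjusted p was 0.135 for Pfkfb3, 0.194 for Aldoc and 0.136 for Slc16a3, which no longer passed. Arrays that share a number deviated together only weakly (correlations 0.0597, 0.0820 and 0.125), and the first Brg1 cKO array correlated best with the second wild-type array (0.188), so the numbers were not taken as pairs. The block changed no call on a member, as none passed in the main test either.

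Small differences changed sign. On another probe set these were Hif1a (0.07), Arnt (-0.27), Egln3 (-0.11), Slc2a1 (0.07), Pgk1 (-0.03 and -0.10) and P4ha1 (-1.07), and with arrays centred on the median Pgam1 (-0.03) and P4ha1 (-0.01). With 1 array left out Hif1a ran from -0.27 to 0.02, Egln3 from -0.11 to 0.57, Ndrg1 from -0.24 to 0.05, Car9 from -0.20 to 0.44, Tpi1 from -0.07 to 0.35, Pgam1 from -0.16 to 0.13, Ldhb from -0.10 to 0.22, P4ha1 from -0.18 to 0.30 and Pygm from -0.08 to 0.84. The median over regulators was 0.07 and that over transporters 0.33 when all probe sets of a gene were averaged, and the regulators' median ran from 0.07 to 0.33 with 1 array left out. The cause of these changes was not tested. The count of members with a positive difference was recomputed without each array after the data had been seen. Dim probe sets, such as those of Epas1 and the second ones of Pfkfb3 and Aldoc, limit what these arrays show.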
